A study of Mus musculus with 24 samples.

Results

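The genes described here encode the enzymes that make long-chain fatty acids from acetyl-CoA and put double bonds into them, together with *Srebf1*, whose product SREBP1 is their main transcriptional activator. The 10 genes were taken by symbol from a table of 49315 genes: *Srebf1*, *Fasn*, *Acaca*, *Acly*, *Acss2*, *Scd1*, *Scd2*, *Elovl6*, *Fads1* and *Fads2*. RNA was sequenced from MS03, a single murine Schwann cell line that lacks *Nf2* (*Nf2*-/-), so every group, the DMSO control included, shares that deletion, of which counts per gene give no check. Cells received DMSO or 1 of 7 drugs aimed at focal adhesion kinase (FAK) for 24 hours, with 3 biological replicates a group and 24 libraries in all. GSK2256098, IN10018 (ifebemtinib), VS-4718 and defactinib inhibit the kinase and were given at 1 µM. PROTACs tie a FAK ligand to an E3 ubiquitin ligase so that the FAK protein is degraded: PROTAC FAK degrader 1 (degrader 1 from here on) was given at 1 µM, and GSK215 and BSJ-04-0146 at 0.1 µM. The p values measure the spread between these replicates of 1 line.

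In the cytosol, *Acly* makes acetyl-CoA from citrate and *Acss2* makes it from acetate, *Acaca* turns acetyl-CoA into malonyl-CoA, and *Fasn* builds palmitate from both. *Elovl6* lengthens palmitate to stearate, *Scd1* and *Scd2* put the first double bond into saturated chains to give palmitoleate and oleate, and *Fads1* and *Fads2* act on the polyunsaturated chains. SREBP1 is held in the endoplasmic reticulum with *Scap* and Insig proteins and, once released and cleaved, activates these genes in the nucleus; the nuclear receptor LXR raises *Srebf1* itself. Schwann cells depend on this pathway for the lipid of myelin, and *Scd2* is the main stearoyl-CoA desaturase of the nervous system.

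Total counts ran from 14472462 to 27449516 per library. The 9 PROTAC libraries (14472462 to 21588406) were all smaller than the 12 kinase inhibitor libraries (21654444 to 26550878). Of 8 Schwann cell markers, 7 passed the filter on low counts. Their summed level was 36.8 to 38.8 CPM (counts normalised to the TMM-scaled library total) in DMSO, 27.0 to 30.7 with degrader 1, 56.6 to 62.1 with defactinib, 54.0 to 57.8 with GSK2256098, 37.2 to 40.6 with IN10018, 92.6 to 103 with VS-4718, 186 to 208 with BSJ-04-0146 and 212 to 218 with GSK215. *Sox10* and *Ngfr* made up most of it, while *S100b* had at most 18 counts. Of other cell types, the 5 adipocyte markers summed to at most 0.795 CPM in any library and the 3 endothelial markers to at most 0.557. The 5 macrophage markers summed to 3.53 to 3.86 CPM in DMSO, 11.2 to 12.1 with degrader 1, 6.54 to 8.22 with GSK215, 7.89 to 9.56 with BSJ-04-0146 and 3.54 to 5.95 with the kinase inhibitors, nearly all of it *Cd68*, and *Ptprc* and *Adgre1* had at most 1 count. The 4 fibroblast markers summed to 300 to 304 CPM with degrader 1, 381 to 401 CPM in DMSO and 374 to 509 CPM in the other groups, nearly all of it *Col1a1*, and *Lum* was at 0 in all 24 libraries. The part of the Schwann cell, macrophage and fibroblast markers' differences in the results below was not tested.

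All 10 genes passed the filter on low counts that left 16070 genes to test. Per kilobase of exon, *Scd2* was the highest in DMSO at 270.7 ± 1.23 RPKM (CPM divided by exon length in kilobases, SD, n = 3). *Acly* followed at 86.1 ± 1.30 and *Fasn* at 66.1 ± 1.13 RPKM, then *Fads2* (52.7 ± 0.662), *Fads1* (51.8 ± 0.708), *Scd1* (46.0 ± 0.627), *Srebf1* (39.2 ± 0.457) and *Elovl6* (36.7 ± 0.247). *Acaca* was at 14.7 ± 0.0662 RPKM, and *Acss2* was last at 1.23 ± 0.0324. Per length, the RNA of the untreated line was thus richest in *Scd2* among the desaturases, and *Acly* far exceeded *Acss2* among the enzymes that make acetyl-CoA. Together the 10 genes held 0.389% ± 0.00227 of all counts in DMSO. That share was 0.227% ± 0.00445 with degrader 1, 0.247% ± 0.00224 with GSK215, 0.287% ± 0.00786 with BSJ-04-0146, 0.310% ± 0.00286 with VS-4718, and between 0.374% and 0.394% on average with the other kinase inhibitors. In bulk RNA, fewer cells that express a gene and less of its RNA per cell cannot be told apart.

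Every one of the 10 genes differed somewhere among the 8 groups (edgeR quasi-likelihood F test over all groups, adjusted p from 3.45e-13 for *Acss2* to 1.13e-35 for *Scd2*), as did 84% of all genes tested. The PROTACs and VS-4718 lowered most of them. With degrader 1, 9 genes were lower than in DMSO and *Acss2* was higher, where 66.8% of all genes tested differed (32.7% lower). With GSK215 all 10 were lower (54.7% of all genes differed and 27.2% were lower), and with BSJ-04-0146 8 were lower and *Fasn* and *Acss2* were not called (54.6% differed and 26.9% were lower). With VS-4718 8 were lower and *Fasn* and *Acaca* were not called (39.2% differed and 18.9% were lower). The median log2 fold change over the 10 genes was -0.70 with degrader 1, -0.55 with GSK215, -0.38 with BSJ-04-0146 and -0.37 with VS-4718, while the median over all genes tested was within 0.022 of 0 in each. The other kinase inhibitors moved the genes little and in both directions. Defactinib raised 4 (*Srebf1*, *Scd1*, *Fads1* and *Fads2*) and lowered *Acly*, against 22.4% of all genes that differed. IN10018 raised *Acss2* and lowered *Fasn*, *Acaca* and *Elovl6*, against 13.3%. GSK2256098 raised *Srebf1* alone, against 12.5%, a share of members no higher than that of all genes. Their median log2 fold changes were -0.015, -0.024 and 0.012. All 7 comparisons share the 3 DMSO libraries, so they are not independent of each other.

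**Figure D1:**
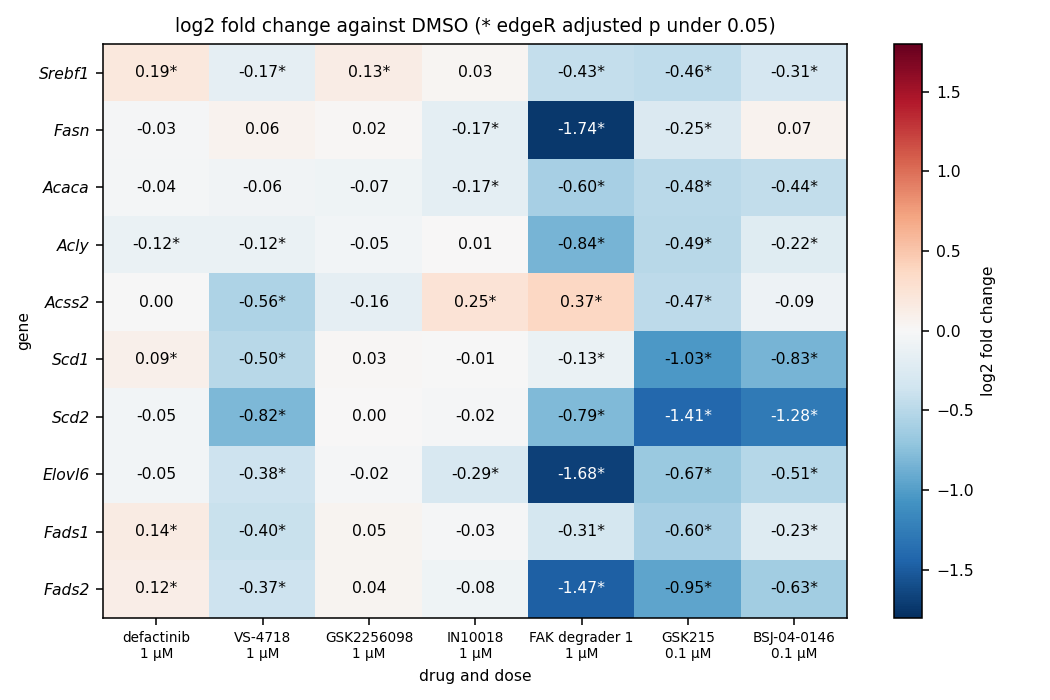
Log2 fold change against DMSO of each of the 10 genes (rows) under each of the 7 drugs (columns, with doses), coloured from blue (lower) to red (higher), with an asterisk where edgeR's adjusted p is under 0.05. The darkest cells are *Fasn* (-1.74), *Elovl6* (-1.68) and *Fads2* (-1.47) under degrader 1 and *Scd2* under GSK215 (-1.41) and BSJ-04-0146 (-1.28).

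The genes called and lowered by over 2-fold were *Fasn*, *Elovl6* and *Fads2* with degrader 1 (6.28% of all genes tested were called and that much lower), *Scd1* and *Scd2* with GSK215 (1.43%), and *Scd2* with BSJ-04-0146 (1.57%). With VS-4718 no gene was lowered that far, and the furthest was *Scd2*. As degrader 1 was given at 1 µM and the other PROTACs at 0.1 µM, their values are set side by side without a test between them.

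*Srebf1* (chr11:60199089-60222581, minus strand, GRCm38) was at 219, 224 and 220 CPM in the DMSO libraries. It was at 169, 159 and 164 CPM with degrader 1, at 154, 162 and 166 with GSK215, and at 171, 184 and 180 with BSJ-04-0146. All 9 PROTAC libraries lay below all DMSO libraries. The log2 fold changes were -0.43 ± 0.037 (SE, edgeR adjusted p = 3.38e-13), -0.46 ± 0.037 (adjusted p = 1.85e-13) and -0.31 ± 0.037 (adjusted p = 3.45e-09). VS-4718 lowered *Srebf1* less, to 197 ± 8.67 CPM (SD, n = 3; log2 fold change -0.17 ± 0.036, edgeR adjusted p = 0.00028). Defactinib raised it to 252 ± 10.1 CPM (0.19 ± 0.036, edgeR adjusted p = 0.000122) and GSK2256098 to 242 ± 6.59 CPM (0.13 ± 0.036, edgeR adjusted p = 0.0122). The GSK2256098 call was lost without DMSO replicate 1 (log2 fold change 0.12), without DMSO replicate 3 (0.12) or without GSK2256098 replicate 3 (0.11). With IN10018 it was at 225 ± 8.63 CPM, which overlapped DMSO. In the order of the 8 means, defactinib overlapped GSK2256098, IN10018 overlapped DMSO and degrader 1 overlapped GSK215, while the other neighbours did not overlap. Under degrader 1 its 95% interval, -0.50 to -0.35, lay apart from those of *Fasn* (-1.82 to -1.67), *Elovl6* (-1.75 to -1.61) and *Fads2* (-1.55 to -1.39). Exons of *Srebf1* overlap those of *Rai1* on the other strand over 1.94% of their length, and the strand setting of the counting is not given in the sources used here.

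**Figure D2:**
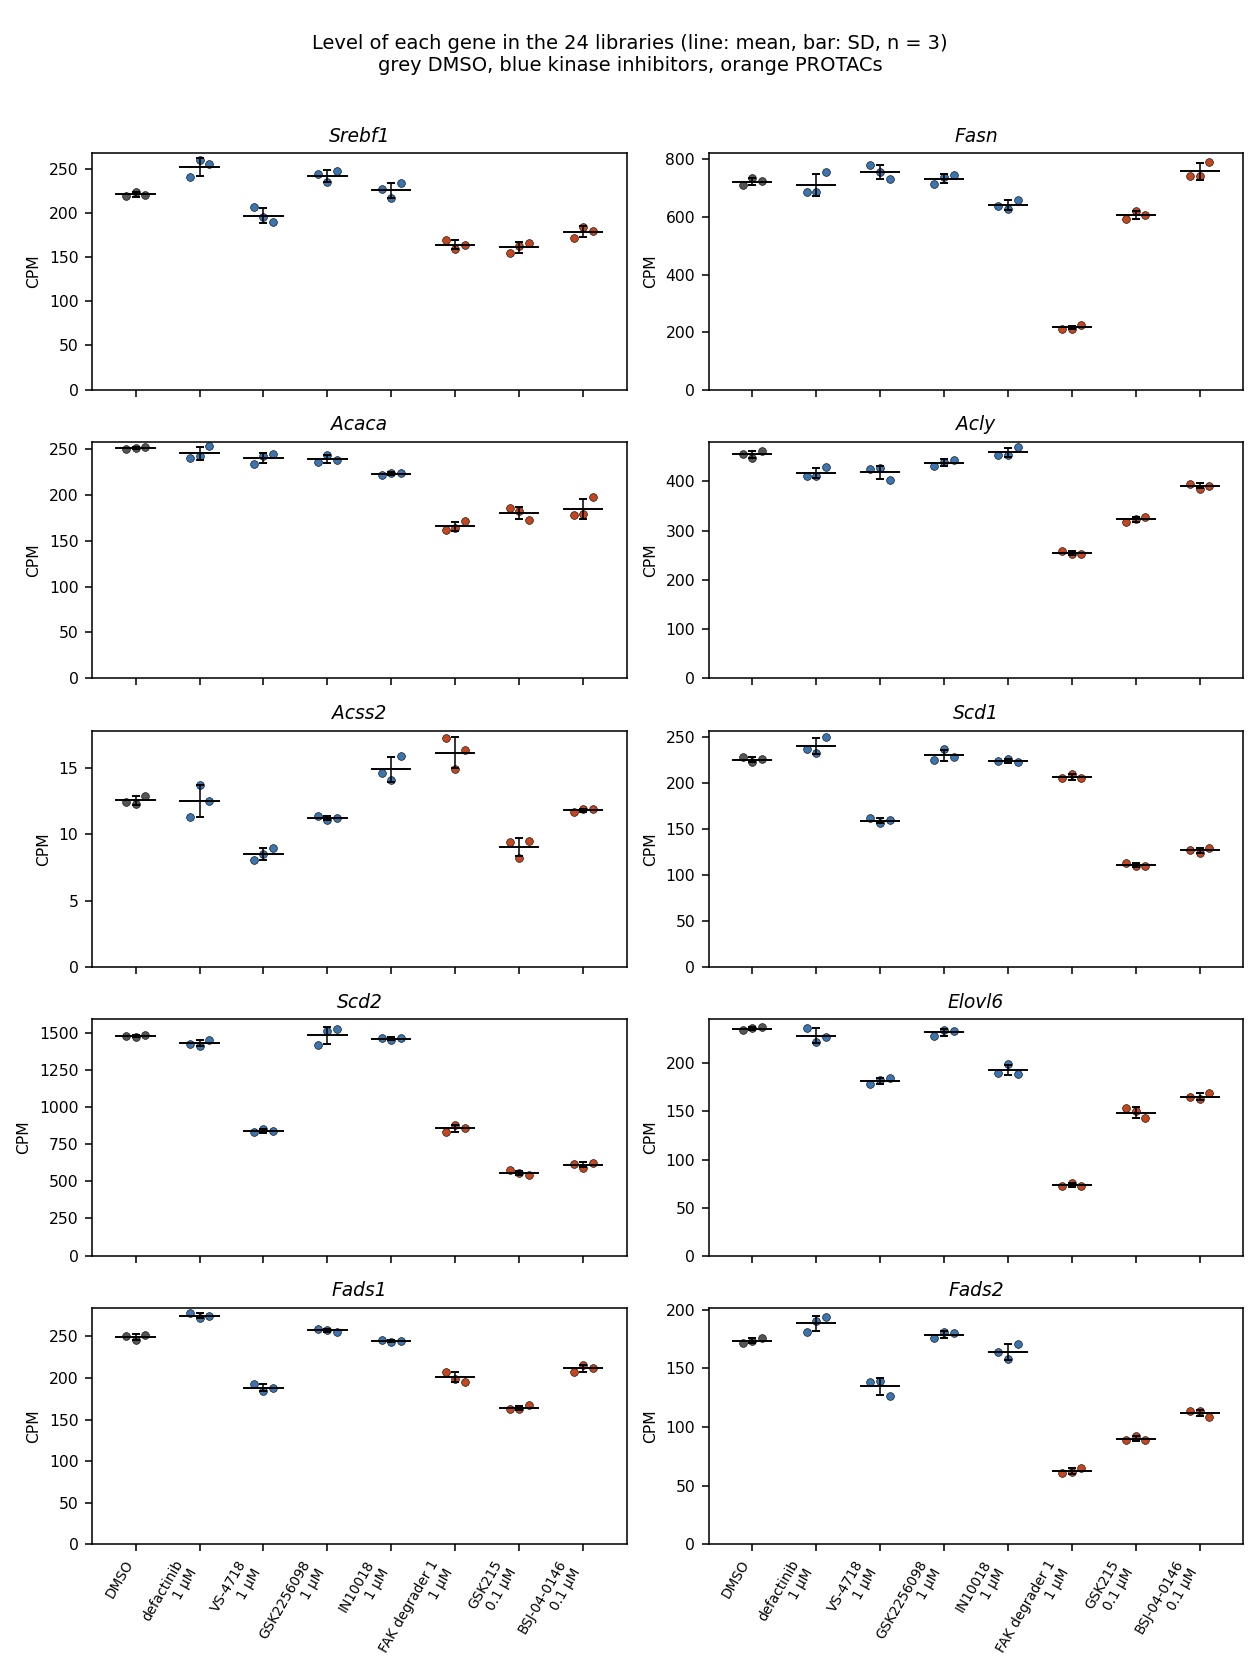
Level of each of the 10 genes in CPM (y axes from 0, one scale per gene) in the 24 libraries by group and dose, with points for libraries, a line for the mean and a bar for the SD (n = 3; grey DMSO, blue kinase inhibitors, orange PROTACs). *Fasn* and *Elovl6* stand far below the other groups with degrader 1 alone, and *Scd2* falls to the range of 545 to 876 CPM with VS-4718 and the PROTACs.

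*Fasn*, the multifunctional synthase that makes palmitate (chr11:120805846-120824547, minus strand), fell far under degrader 1 and little or not at all under the other drugs. It was at 710, 735 and 725 CPM in DMSO and at 212, 212 and 224 CPM with degrader 1, which is 29.9% of the DMSO mean. The log2 fold change was -1.74 ± 0.037 (edgeR adjusted p = 2.27e-32). With GSK215 it was at 594, 619 and 607 CPM, a log2 fold change of -0.25 ± 0.035 (edgeR adjusted p = 7.7e-08), and with IN10018 at 642 ± 16.4 CPM (-0.17 ± 0.035, adjusted p = 0.000628). All libraries of both groups lay below those of DMSO and above those of degrader 1. With BSJ-04-0146 it was at 742, 742 and 792 CPM and with VS-4718 at 780, 755 and 733 CPM. Neither passed the test (edgeR log2 fold change 0.068, adjusted p = 0.0976, and 0.063, adjusted p = 0.153), but both did, as higher, when library totals alone were used for scaling (0.18 and 0.10). Defactinib (711 ± 39.1 CPM) and GSK2256098 (733 ± 15.9 CPM) overlapped DMSO.

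The 250 bases upstream of the RefSeq start (GRCm38.p6) were searched on both strands for 4 motifs bound by factors known to act on these genes: the sterol regulatory element TCACNCCAC, the NF-Y box CCAAT, the GC box GGGCGG and the E-box CACGTG. RefSeq windows were matched for 7 of the 10 genes, all but *Scd1*, *Scd2* and *Fads1*, with 9 windows in all. The windows of *Fasn*, *Elovl6* and *Acly* are shown because these genes and *Fads2* were lowered furthest by degrader 1, and their letters can be set beside the values; the window of *Fads2* lies almost wholly within its transcript in GENCODE M21 and is not shown, and that of *Elovl6* was searched whole but is printed without its last 31 bases, which lie inside its GENCODE transcript. Capitals mark NF-Y boxes in *Fasn* and GC boxes in *Acly*, read 5′ to 3′ on the strand of the gene. Their positions are chr11:120824548-120824797 (*Fasn*, minus strand), chr3:129532136-129532354 (*Elovl6*, plus strand) and chr11:100528001-100528250 (*Acly*, minus strand).
Fasn: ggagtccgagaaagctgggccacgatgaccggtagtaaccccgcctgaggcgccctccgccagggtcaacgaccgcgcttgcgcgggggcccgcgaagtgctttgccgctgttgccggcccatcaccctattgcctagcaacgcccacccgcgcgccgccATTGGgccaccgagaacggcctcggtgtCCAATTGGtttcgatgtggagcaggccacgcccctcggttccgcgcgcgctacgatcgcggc
Elovl6: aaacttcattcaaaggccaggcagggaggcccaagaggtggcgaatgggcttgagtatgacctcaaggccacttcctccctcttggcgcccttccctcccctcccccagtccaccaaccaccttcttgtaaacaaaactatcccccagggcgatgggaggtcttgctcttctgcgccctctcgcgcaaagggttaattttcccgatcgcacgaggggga
Acly: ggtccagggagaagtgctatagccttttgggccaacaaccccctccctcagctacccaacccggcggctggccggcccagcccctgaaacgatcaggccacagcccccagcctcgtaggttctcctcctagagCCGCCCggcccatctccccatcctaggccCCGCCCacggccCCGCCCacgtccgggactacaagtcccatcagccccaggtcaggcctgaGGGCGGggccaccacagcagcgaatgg
*Fasn* held 3 NF-Y boxes, the first bases of which lay at positions -90, -62 and -59 from the start, with the last pair overlapping by 2 bases, and *Acly* held 4 GC boxes at -117, -88, -76 and -27. *Elovl6* and *Acaca* held none of the 4 motifs, but the window of *Acaca* (chr11:84195188-84195437) lies inside the gene as GENCODE M21 places it, as do 2 of the 3 windows of *Srebf1* and the end of that of *Acss2*. *Acss2*, the gene that degrader 1 raised, held 4 GC boxes, as many as *Acly*, and 1 NF-Y box, *Fads2* held 1 GC box, and the 3 windows of *Srebf1* held 4 GC boxes and 2 NF-Y boxes in all. Neither the sterol regulatory element nor the E-box was found in any of the 9 windows; they occur in 1.05% and 6.02% of all 32851 RefSeq windows of this length, against 33.8% for the NF-Y box and 32.7% for the GC box. A match is a string of letters and not a bound site, and its absence holds for these windows only.

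*Acaca*, which makes malonyl-CoA in the committed step (chr11:84129672-84401651, plus strand), was lower under all 3 PROTACs. It was at 251, 252 and 253 CPM in DMSO, at 162, 164 and 172 with degrader 1, at 185, 182 and 173 with GSK215 and at 178, 180 and 198 with BSJ-04-0146. None of the 9 PROTAC libraries reached the DMSO range. The log2 fold changes were -0.60 ± 0.035, -0.48 ± 0.035 and -0.44 ± 0.035 (edgeR adjusted p = 1.8e-18, 4.31e-15 and 4.74e-14). IN10018 lowered it to 223 ± 1.54 CPM (-0.17 ± 0.034, edgeR adjusted p = 0.000429), and the other kinase inhibitors left it at means of 239 to 246 CPM with no call. Of the 50-base words of its transcripts, 30.4% also occur in other genes, nearly all of these in *Gm5182*, so that the counting could have left out part of its reads.

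*Acly*, the ATP-citrate lyase (chr11:100476353-100528000, minus strand), was at 455, 448 and 461 CPM in DMSO. It was at 259, 253 and 252 CPM with degrader 1 (log2 fold change -0.84 ± 0.030, edgeR adjusted p = 3.83e-25), at 317, 324 and 328 with GSK215 (-0.49 ± 0.029, adjusted p = 1.8e-17) and at 395, 385 and 391 with BSJ-04-0146 (-0.22 ± 0.029, adjusted p = 3.29e-08). The 3 PROTAC groups did not overlap each other or DMSO. *Acly* was also lower with defactinib (417 ± 9.96 CPM, -0.12 ± 0.029, edgeR adjusted p = 0.00139) and VS-4718 (418 ± 13.2 CPM, -0.12 ± 0.029, adjusted p = 0.000922). It was the one gene of the 10 that defactinib lowered. With GSK2256098 (438 ± 6.58 CPM) and IN10018 (459 ± 8.96 CPM) it had no call.

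*Acss2*, the acetyl-CoA synthetase that uses acetate (chr2:155517948-155585724, plus strand), was the one gene of the 10 that was higher with degrader 1, and was lower with GSK215 and VS-4718. It was at 12.4, 12.3 and 12.9 CPM in DMSO and at 17.2, 14.9 and 16.3 CPM with degrader 1, a log2 fold change of 0.37 ± 0.075 (edgeR adjusted p = 4.42e-05). The degrader 1 libraries all lay above DMSO. GSK215 (9.39, 8.23 and 9.48 CPM) and VS-4718 (8.08, 8.52 and 8.93 CPM) lowered it, with log2 fold changes of -0.47 ± 0.085 (edgeR adjusted p = 8.59e-06) and -0.56 ± 0.080 (adjusted p = 3.85e-07). IN10018 had it at 14.9 ± 0.935 CPM (0.25 ± 0.075, edgeR adjusted p = 0.0216), a call lost with libraries thinned to the smallest total (0.24) and without DMSO replicate 1 (0.24), DMSO replicate 2 (0.23) or IN10018 replicate 3 (0.20). Defactinib (12.5 ± 1.20 CPM), GSK2256098 (11.2 ± 0.173 CPM) and BSJ-04-0146 (11.8 ± 0.119 CPM) had no call. *Acss2* rested on the fewest reads of the 10 genes, and its exons overlap the opposite-strand exons of *Gss* over 3.89% of their length, of *Acss2os* over 3.30% and of *Ggt7* over 1.94%. Reads of these genes cannot be told apart there if strand was not used.

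The stearoyl-CoA desaturase genes *Scd2* (chr19:44293674-44306864, plus strand) and *Scd1* (chr19:44394455-44407879, minus strand) lie tail to tail on chromosome 19, with 87590 bases between them. They were the genes of the 10 that GSK215 and BSJ-04-0146 lowered furthest; with VS-4718, *Acss2* came between them. *Scd2* was at 1481, 1472 and 1485 CPM in DMSO, at 573, 553 and 545 with GSK215, at 618, 591 and 621 with BSJ-04-0146, at 828, 853 and 840 with VS-4718 and at 834, 876 and 859 with degrader 1. The degrader 1 and VS-4718 libraries overlapped each other, while the other 2 PROTACs lay below both. The log2 fold changes were -1.41 ± 0.031 with GSK215 (edgeR adjusted p = 3.25e-31), -1.28 ± 0.031 with BSJ-04-0146 (adjusted p = 8.52e-30), -0.82 ± 0.030 with VS-4718 (adjusted p = 3.7e-23) and -0.79 ± 0.030 with degrader 1 (adjusted p = 5.51e-24). Defactinib (1428 ± 20.9 CPM), GSK2256098 (1484 ± 57.6 CPM) and IN10018 (1459 ± 9.57 CPM) had no call.

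*Scd1* followed *Scd2* under 3 of these drugs but hardly under degrader 1. It was at 228, 222 and 226 CPM in DMSO and at 205, 210 and 205 CPM with degrader 1, a log2 fold change of -0.13 ± 0.030 (edgeR adjusted p = 0.000367). That call was lost when library totals alone were used for scaling (-0.043). With GSK215 it was at 113, 109 and 109 CPM (-1.03 ± 0.032, edgeR adjusted p = 2.07e-26), with BSJ-04-0146 at 127, 124 and 130 CPM (-0.83 ± 0.032, adjusted p = 1.27e-23) and with VS-4718 at 161, 156 and 159 CPM (-0.50 ± 0.030, adjusted p = 1.07e-16). Each of these groups lay below the degrader 1 libraries. Defactinib had it at 240 ± 8.83 CPM (0.091 ± 0.030, edgeR adjusted p = 0.0228), a call that did not hold with thinned libraries (0.062), with no filter (0.086) or without defactinib replicate 3 (0.058), DMSO replicate 2 (0.080) or DMSO replicate 3 (0.089). GSK2256098 (229.6 ± 6.16 CPM) and IN10018 (224 ± 1.96 CPM) overlapped DMSO. Of the 50-base words of *Scd1* and *Scd2*, 4.56% and 3.97% occur in other genes.

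*Elovl6*, the elongase of palmitate (chr3:129532355-129638495, plus strand), was at 235, 237 and 238 CPM in DMSO and at 72.8, 76.0 and 72.0 CPM with degrader 1, or 31.15% of the DMSO mean. The log2 fold change was -1.68 ± 0.034 (edgeR adjusted p = 8.06e-33). GSK215 had it at 154, 150 and 143 CPM (-0.67 ± 0.032, edgeR adjusted p = 3.16e-20), BSJ-04-0146 at 165, 163 and 169 CPM (-0.51 ± 0.032, adjusted p = 8.12e-17) and VS-4718 at 178, 182 and 185 CPM (-0.38 ± 0.031, adjusted p = 8.77e-13). It was also the gene that IN10018 lowered furthest, to 193 ± 5.42 CPM (-0.29 ± 0.031, edgeR adjusted p = 1.11e-08). With defactinib (229 ± 7.64 CPM) and GSK2256098 (232 ± 3.73 CPM) it overlapped DMSO. From IN10018 down to degrader 1, no neighbouring groups overlapped.

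*Fads1* (chr19:10182888-10196877, plus strand) and *Fads2* (chr19:10062765-10101746, minus strand) lie head to head, with 81141 bases between them, and encode desaturases that act in turn on the same chains. *Fads2* was at 172, 173 and 176 CPM in DMSO, at 61.0, 61.4 and 65.4 with degrader 1, at 88.6, 92.3 and 88.7 with GSK215 and at 114, 114 and 109 with BSJ-04-0146. The groups formed 4 separate steps. The log2 fold changes were -1.47 ± 0.040, -0.95 ± 0.039 and -0.63 ± 0.038 (edgeR adjusted p = 6.87e-29, 1.09e-22 and 2.05e-17). *Fads1* was at 251, 245 and 252 CPM in DMSO, at 207, 199 and 196 with degrader 1, at 163, 163 and 167 with GSK215 and at 208, 216 and 212 with BSJ-04-0146, with log2 fold changes of -0.31 ± 0.029, -0.60 ± 0.029 and -0.23 ± 0.029 (edgeR adjusted p = 2.27e-12, 4.2e-20 and 6.42e-09). VS-4718 lowered both, *Fads1* to 189 ± 4.57 CPM (-0.40 ± 0.029, edgeR adjusted p = 1.37e-14) and *Fads2* to 135 ± 7.23 CPM (-0.37 ± 0.036, adjusted p = 9.45e-11). Defactinib raised *Fads1* to 275 ± 3.38 CPM (0.14 ± 0.028, edgeR adjusted p = 0.000221). It had *Fads2* at 189 ± 6.53 CPM (0.12 ± 0.036, edgeR adjusted p = 0.013), a call lost with thinned libraries (0.11) and without DMSO replicate 1 (0.11), defactinib replicate 2 (0.11) or defactinib replicate 3 (0.096). Neither gene had a call with GSK2256098 or IN10018, where *Fads1* was at 257 ± 1.5 and 245 ± 1.33 CPM and *Fads2* at 179 ± 2.78 and 164 ± 6.73 CPM.

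Ratios of 2 genes within a library do not depend on how libraries are scaled to each other, so they show the unequal changes directly. The pairs were chosen after the values were seen, and with 3 libraries against 3 the exact two-sided permutation test cannot go below p = 0.1. *Fasn* had 3.11 to 3.31 counts for each count of *Scd1* in DMSO, 1.01 to 1.09 with degrader 1, 5.25 to 5.67 with GSK215, 5.85 to 6.12 with BSJ-04-0146 and 4.61 to 4.84 with VS-4718. It was 2.90 to 3.03 with defactinib and 2.78 to 2.97 with IN10018. The ratio thus lay below DMSO, with no overlap, under degrader 1, defactinib and IN10018, and above it, with no overlap, under GSK215, BSJ-04-0146 and VS-4718 (p = 0.1 each, the smallest the exact permutation test can give). *Elovl6* to *Scd1*, which shares its *Scd1* counts and the DMSO libraries with that ratio and so adds no separate support, was 1.03 to 1.07 in DMSO, 0.352 to 0.362 with degrader 1, 0.851 to 0.881 with IN10018 and 0.913 to 1.00 with defactinib. It was 1.31 to 1.38 with GSK215, 1.30 to 1.31 with BSJ-04-0146 and 1.11 to 1.17 with VS-4718. The ratio of *Scd1* to *Scd2* was 0.151 to 0.154 in DMSO, 0.239 to 0.246 with degrader 1, 0.198 to 0.200 with GSK215, 0.205 to 0.209 with BSJ-04-0146, 0.183 to 0.195 with VS-4718 and 0.165 to 0.172 with defactinib, all above DMSO, while GSK2256098 and IN10018 overlapped it. The ratio of *Fads1* to *Fads2* was 1.41 to 1.46 in DMSO, 2.99 to 3.40 with degrader 1, 1.76 to 1.89 with GSK215 and 1.83 to 1.94 with BSJ-04-0146, while all 4 kinase inhibitors overlapped DMSO.

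**Figure D3:**
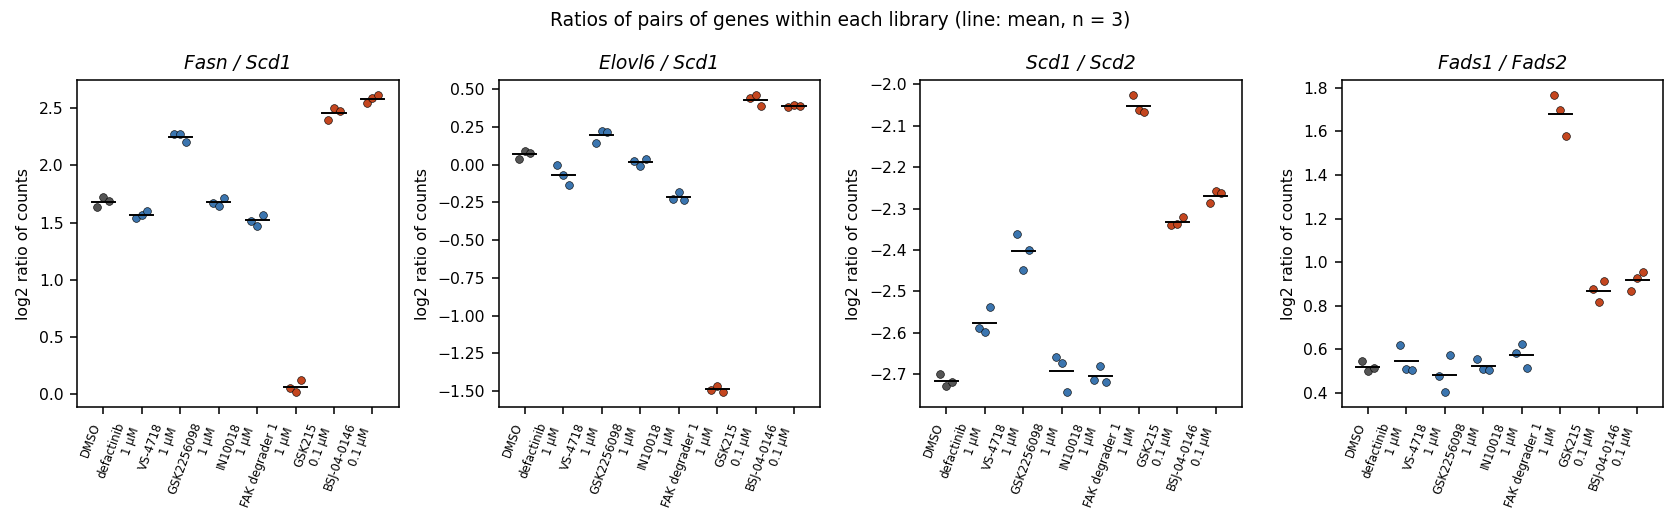
Log2 ratio of the counts of 2 genes within each library, for 4 pairs of genes (y axes differ and do not start at 0), by group, with points for libraries and a line for the mean (n = 3; grey DMSO, blue kinase inhibitors, orange PROTACs). *Fasn* to *Scd1* falls from a mean of 1.68 in DMSO to 0.066 with degrader 1 and stands at 2.46 with GSK215 and 2.58 with BSJ-04-0146.

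*Scd2* alone made up 36.6% to 36.9% of the 10 genes' counts in DMSO, 37.9% to 39.4% with degrader 1, 23.4% to 24.4% with GSK215 and 21.8% to 22.7% with BSJ-04-0146. *Fasn* made up 17.7% to 18.3% in DMSO, 9.54% to 10.1% with degrader 1, 25.3% to 26.2% with GSK215 and 27.2% to 28.2% with BSJ-04-0146. Under GSK215 and BSJ-04-0146 *Fasn* overtook *Scd2* in raw counts, with *Fasn* to *Scd2* ratios of 1.04 to 1.12 and 1.20 to 1.28, against 0.479 to 0.499 in DMSO and 0.242 to 0.261 with degrader 1.

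The design also holds compounds given at the same dose and time, of which 3 pairs were compared. Degrader 1 against defactinib, both at 1 µM, asks what a PROTAC does beside a kinase inhibitor: 9 genes were lower and *Acss2* higher, where 68.9% of all genes differed. The differences were largest for *Fasn* (-1.72 ± 0.037, edgeR adjusted p = 3.28e-32), *Elovl6* (-1.64 ± 0.035, adjusted p = 1.93e-32) and *Fads2* (-1.59 ± 0.040, adjusted p = 5.41e-30), and smallest for *Scd1* (-0.22 ± 0.030, adjusted p = 4.5e-08). *Srebf1* differed by more than against DMSO (-0.62 ± 0.037, edgeR adjusted p = 5.5e-18), as defactinib itself raised it.

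VS-4718 and defactinib are both kinase inhibitors and were given at 1 µM. With VS-4718, 7 genes were lower and *Fasn* was higher, where 34% of all genes differed. *Scd2* differed by -0.77 ± 0.030, *Scd1* by -0.59 ± 0.030, *Acss2* by -0.55 ± 0.081 and *Fads1* by -0.55 ± 0.029 (edgeR adjusted p = 3.79e-22, 9.3e-19, 7.43e-07 and 2.33e-18). For *Acly* the difference was 0.0052, with a 95% interval from -0.053 to 0.064, and for *Acaca* -0.030, from -0.097 to 0.038. The *Fasn* call (0.089 ± 0.035, edgeR adjusted p = 0.045) was lost with thinned libraries (0.078), with no filter (0.089), and without defactinib replicate 1 (0.059), defactinib replicate 2 (0.057), VS-4718 replicate 1 (0.058) or VS-4718 replicate 2 (0.091).

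GSK215 and BSJ-04-0146 are both PROTACs and were given at 0.1 µM. With BSJ-04-0146, 9 genes were higher than with GSK215, where 22.5% of all genes differed (12.6% higher), so GSK215 lowered these genes further at that dose. The difference was 0.39 ± 0.090 for *Acss2*, 0.37 ± 0.030 for *Fads1*, 0.32 ± 0.035 for *Fasn*, 0.32 ± 0.041 for *Fads2* and 0.27 ± 0.030 for *Acly* (edgeR adjusted p = 0.00124, 4.46e-12, 5.67e-09, 1.46e-07 and 4.27e-09). For *Scd2* it was 0.13 ± 0.031 (edgeR adjusted p = 0.00131). *Acaca* was not called, at 0.040 with a 95% interval from -0.032 to 0.11.

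**Figure D4:**
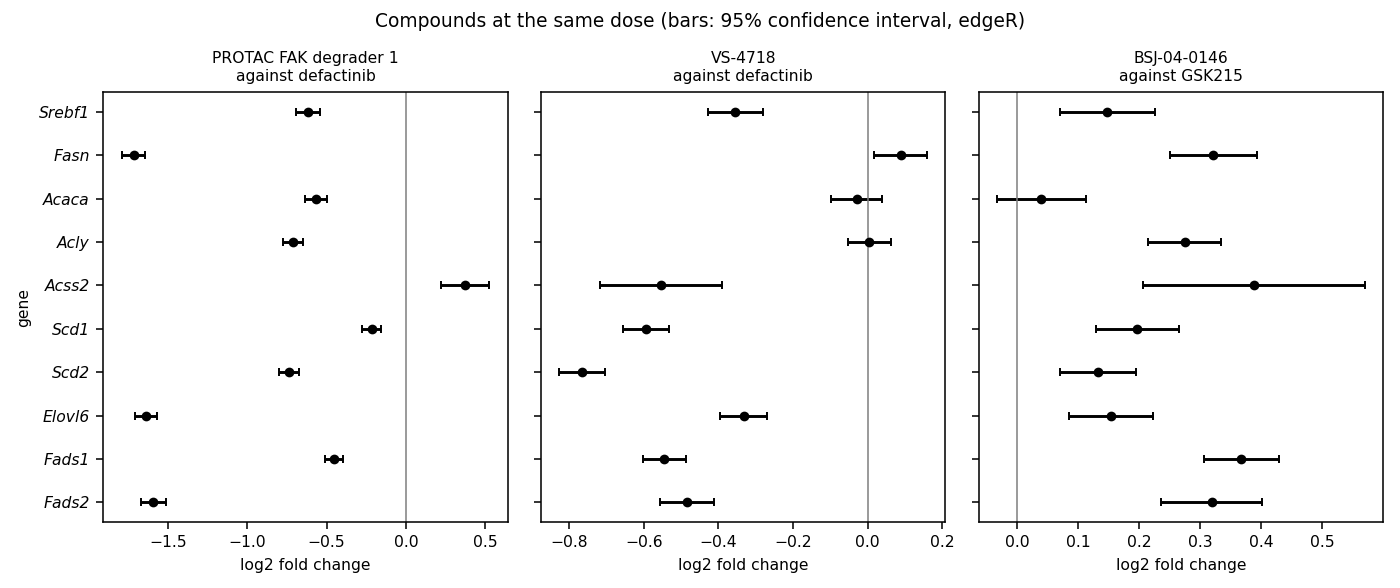
Log2 fold change (x axes, which differ in range) of each of the 10 genes (y axis) between compounds at the same dose, with 95% confidence intervals from the edgeR fit. Degrader 1 differs from defactinib most in *Fasn*, *Elovl6* and *Fads2*, VS-4718 from defactinib most in *Scd2*, and 9 of the 10 genes are higher with BSJ-04-0146 than with GSK215.

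Other genes of lipid metabolism were counted in lists (members chosen with earlier results of these data known), read against the shares of all genes given above. The shares of all genes tested that were higher were 34.1% with degrader 1, 27.4% with GSK215, 27.7% with BSJ-04-0146 and 20.4% with VS-4718. Of 7 genes of cholesterol metabolism that were tested, the targets of the related factor SREBP2, all 7 were lower with degrader 1 and with GSK215, 6 with VS-4718, and 4 with BSJ-04-0146, where *Fdft1* was higher. *Idi1*, the isopentenyl diphosphate isomerase, had a log2 fold change of -1.69 ± 0.061 with degrader 1 (edgeR adjusted p = 7.23e-25), and *Lss*, the lanosterol synthase, one of -1.01 ± 0.043 with GSK215 (adjusted p = 6.63e-22). Of 8 other enzymes of chain elongation, all 8 were lower with degrader 1, led by *Hsd17b12* (-0.96 ± 0.029, edgeR adjusted p = 1.94e-27) and *Elovl5* (-0.76 ± 0.033, adjusted p = 3.04e-22). With GSK215, 5 were lower and 3 higher, with BSJ-04-0146 4 and 2, and with VS-4718 2 and 3. *Tecr*, the enoyl-CoA reductase of the same cycle, picked after its values were seen, was lower with degrader 1 (-0.43) and higher with VS-4718 (0.33 ± 0.037, edgeR adjusted p = 2.26e-09) and BSJ-04-0146 (0.35 ± 0.037, adjusted p = 2.59e-10). It was also higher with GSK215 (0.26, edgeR adjusted p = 2.08e-07), defactinib (0.26, adjusted p = 1.44e-06) and GSK2256098 (0.18, adjusted p = 0.000601), and had no call with IN10018.

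The list of SREBP control and cofactors, with 11 genes tested, also holds *Mlx*, *Mid1ip1* and *Thrsp*, which act on fat synthesis but not on SREBP. It was split: 3 higher and 6 lower with degrader 1, 3 and 5 with GSK215, 5 and 2 with BSJ-04-0146, and 2 and 3 with VS-4718. *Insig1*, which holds SREBP in the endoplasmic reticulum and is itself an SREBP target, was lower with degrader 1 (-0.58 ± 0.035, edgeR adjusted p = 7.19e-18), GSK215 (-0.86 ± 0.036, adjusted p = 2.24e-22) and VS-4718 (-0.66 ± 0.034, adjusted p = 1.16e-18) and higher with BSJ-04-0146 (0.18, adjusted p = 1.11e-05). *Insig2* was higher with degrader 1 (0.78 ± 0.046, edgeR adjusted p = 3.45e-18). Of 4 LXR targets tested, 2 were higher and 1 lower with degrader 1 and with BSJ-04-0146, 3 and 1 with GSK215, and 1 and 1 with VS-4718. *Nr1h3*, with only 20 to 68 counts a library, stands in both this list and that of SREBP control. Its calls as higher with GSK215 (0.80) and BSJ-04-0146 (0.85) were thus counted in each. *Mylip*, a ubiquitin ligase, was higher with degrader 1 (1.42 ± 0.071), GSK215 (1.33 ± 0.072) and BSJ-04-0146 (1.39 ± 0.072; edgeR adjusted p = 1.92e-20, 1.01e-18 and 2.48e-19), while *Lpcat3*, a phospholipid acyltransferase, was lower with each of the 3.

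**Figure D5:**
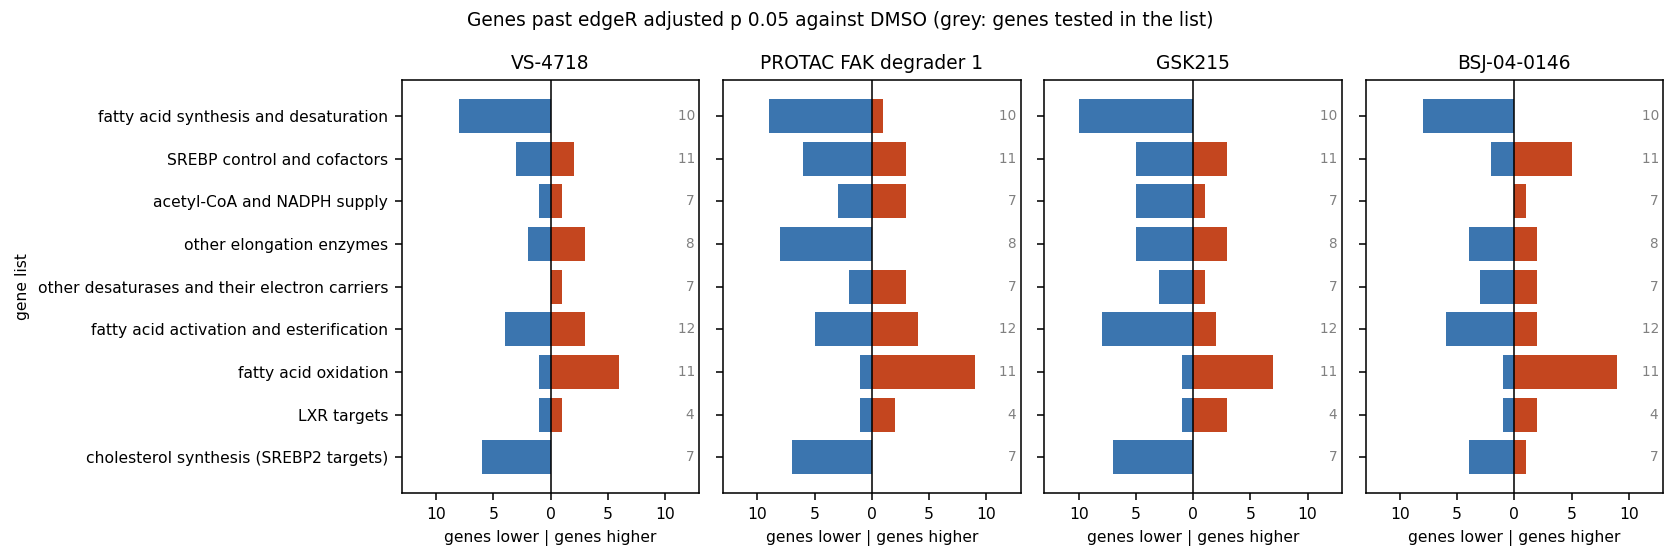
Number of genes of each list past edgeR's adjusted p of 0.05 against DMSO, lower to the left (blue) and higher to the right (orange), under the 4 drugs that moved most of the 10 genes, with the number tested in grey. The lists of the 10 genes and of cholesterol synthesis lie mainly to the left, with 9 lower and 7 lower under degrader 1, and fatty acid oxidation mainly to the right, with 9 higher under degrader 1 and BSJ-04-0146.

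Over the 8 group means of log2 CPM, the 10 genes did not form one pattern. Pearson's r between 2 of them ranged from -0.57 to 0.95 over the 45 pairs, with a median of 0.68, as a description with 8 points each. The highest were 0.95 for *Elovl6* and *Fads2*, 0.95 for *Acly* and *Fads2* and 0.94 for *Scd1* and *Scd2*, while *Fasn* and *Scd1* had r = -0.12. *Elovl6* and *Fasn* had r = 0.92, but both were lowest with degrader 1, and *Fasn* was highest with BSJ-04-0146 and VS-4718 (758 and 756 CPM), where *Elovl6* was at 166 and 182 CPM against 236 in DMSO. Of the 10278 genes ranked for likeness over the same means, *Srebf1* was most like *Lrp8* (r = 0.97), *Sys1* (0.96) and *Nckap1* (0.96), and *Fads2* was the nearest of the 10 genes at rank 32. *Fasn* was most like *Tpgs2*, *A430057M04Rik* and *Nubp2* (0.99 or more), with *Elovl6* at rank 580. The degrader 1 mean of *Fasn* was 216 CPM, while the other 7 means lay between 607 and 758 CPM. How far that likeness rests on degrader 1 was not tested. *Scd1* was most like *Zbed3* (0.98), *Nras* (0.97) and *Ptpmt1* (0.97), with *Scd2* at rank 56.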

How the data were processed

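Poly(A) RNA from 24 libraries of MS03 cells was sequenced by a commercial service. The authors deposited raw counts, whole numbers of reads per gene with no normalization. The submitters' processing notes name Trimmomatic 0.36, STAR 2.5.2b, featureCounts of Subread 1.5.2 and GRCm38; annotation release and strand setting are not given in the sources used here. Columns were matched to samples by library number. Counts were tested in R 4.3.3 with edgeR 4.0.16 (TMM, filterByExpr, glmQLFit and glmQLFTest, 1 coefficient per group, all libraries in 1 fit, 16 residual degrees of freedom). Two-sided p values got Benjamini-Hochberg adjustment across 16070 of 49315 genes, called under 0.05. The root of F divides the log2 fold change to give its standard error. CPM use TMM-scaled totals, but the marker sums and the 5 CPM floor for naming listed genes use raw library totals. The code was tested on simulated data. Coordinates are from GENCODE M21, promoters from RefSeq. All 10 genes are named in all groups; of each other list, at most 2 genes per comparison, the largest called changes with a mean of at least 5 CPM, with a few chosen after their values were seen. The genes and lists were chosen with earlier results of these data known. Alternatives were DESeq2 1.42.0, library totals, no filter, limma-trend (limma 3.58.1) on log2(CPM + 4), a replicate block, thinning to the smallest total and leaving out each replicate. Replicates differed by more than counting noise (chi-square per degree of freedom 1.73 to 8.49), so none was counted as a copy.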

Additional observations from a re-analysis of the deposited data

How the results depend on the processing

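Of 100 results on single genes (10 genes in 10 comparisons), 86 kept their direction and their side of the threshold under every alternative run, among them 67 of the 73 calls. With defactinib the count of called genes was 5, and 3 with libraries thinned to the smallest total; leaving out 1 replicate gave 3 to 5, with 3 without defactinib replicate 3. With GSK2256098 it was 1, and 0 to 1 on leaving out 1 replicate, with 0 when GSK2256098 replicate 3 or DMSO replicate 1 or 3 was absent. The results that changed sign were all uncalled: *Acly* with IN10018 (-0.0086 thinned, and -0.0049 to 0.021 on leaving out 1 replicate, below 0 without IN10018 replicate 3), *Acss2* with BSJ-04-0146 (0.023 with library totals), *Acss2* with defactinib (0.013 with library totals, and -0.073 to 0.059 on leaving out 1 replicate, above 0 without DMSO replicate 3 or defactinib replicate 1), *Scd2* with GSK2256098 (-0.0011 with DESeq2, and -0.021 to 0.033 on leaving out 1 replicate, below 0 without DMSO replicate 2 or GSK2256098 replicate 2 or 3), *Acaca* for BSJ-04-0146 against GSK215 (-0.013 to 0.066 on leaving out 1 replicate, below 0 without BSJ-04-0146 replicate 3), and *Acly* for VS-4718 against defactinib (-0.015 to 0.022 on leaving out 1 replicate, below 0 without VS-4718 replicate 1 or 2 or defactinib replicate 1 or 2). The causes were not tested. Scaling by library totals alone moved the median of all genes to 0.14 with GSK215 and 0.13 with BSJ-04-0146. The main fold changes and the CPM of the 10 genes are relative to TMM.

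The shared replicate numbers did not pair the samples: over 30 same-numbered pairs the deviations correlated from -0.17 to 0.10, none above 0.1, and 7 of 30 matched their own number best. With the replicate block, as without it, the counts of called genes were 5 (defactinib), 8 (VS-4718), 1 (GSK2256098), 4 (IN10018), 10 (degrader 1), 10 (GSK215) and 8 (BSJ-04-0146) against DMSO, and no single call changed. The PROTAC libraries were the shallowest, and a change as small as that of *Scd1* with degrader 1 depends on the scaling. Each group holds 3 libraries of 1 line at 1 dose and time, RNA was measured and not protein or lipid, and the doses differ between PROTACs.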

Other observations

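Fatty acid oxidation is the route that burns what the genes above make. Of 11 genes of a list of its enzymes, carriers and regulators (among them *Ppard*, lower with GSK215) that were tested, 9 were higher and 1 lower with degrader 1, 9 and 1 with BSJ-04-0146, 7 and 1 with GSK215 and 6 and 1 with VS-4718, where 34.1%, 27.7%, 27.4% and 20.4% of all genes tested were higher. With defactinib 1 was higher and 2 lower, where 11.4% of all genes tested were higher and 11% lower. With GSK2256098 these counts were 1 and 1 (6.36% and 6.09% of all genes), and with IN10018 2 and 1 (6.44% and 6.85%). *Cpt1a*, which admits long-chain fatty acids to mitochondria and is blocked by the malonyl-CoA that *Acaca* makes, rose by 1.49 ± 0.034 on the log2 scale with BSJ-04-0146, 1.23 ± 0.034 with GSK215, 0.56 ± 0.035 with degrader 1 and 0.44 ± 0.035 with VS-4718 (edgeR adjusted p = 1.24e-30, 6.61e-28, 2.41e-17 and 2.2e-13). *Cpt1c* rose by 0.86 ± 0.042 with GSK215, 0.81 ± 0.042 with BSJ-04-0146 and 0.62 ± 0.041 with VS-4718 (edgeR adjusted p = 3.2e-20, 2.93e-19 and 1.94e-15), and was 0.086 with degrader 1 (adjusted p = 0.0836). *Hadha*, of the mitochondrial trifunctional protein, rose by 0.57 ± 0.030 with degrader 1 (edgeR adjusted p = 1.72e-19). *Hadhb*, its partner subunit, was lower with degrader 1 (-0.099, adjusted p = 0.0251) and BSJ-04-0146 (-0.14, adjusted p = 0.00245).

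The remaining lists were mixed. Of 12 genes of fatty acid activation and esterification, 4 were higher and 5 lower with degrader 1, 2 and 8 with GSK215, 2 and 6 with BSJ-04-0146, and 3 and 4 with VS-4718. *Acsl5*, which activates long-chain fatty acids, fell by 1.13 ± 0.032 on the log2 scale with degrader 1 (edgeR adjusted p = 2.35e-28). *Lpin1*, a phosphatidate phosphatase, was higher with degrader 1 (0.87 ± 0.083, edgeR adjusted p = 5.93e-12) and lower with VS-4718 (-0.96 ± 0.098, adjusted p = 1.94e-10) and GSK215 (-0.79 ± 0.10, adjusted p = 1.59e-08). Of 7 other desaturases and their electron carriers, 3 were higher and 2 lower with degrader 1, led by *Degs1*, the dihydroceramide desaturase (-1.06 ± 0.036, edgeR adjusted p = 1e-25), and 1 higher and 3 lower with GSK215, led by *Fads3* (-0.73 ± 0.032, adjusted p = 1.95e-21). With BSJ-04-0146 2 were higher and 3 lower, *Fads3* again the furthest (-0.96 ± 0.033, edgeR adjusted p = 4.68e-25), and with VS-4718 1 was higher. Of 7 genes listed under acetyl-CoA and NADPH supply, 3 were higher and 3 lower with degrader 1, 1 and 5 with GSK215, 1 and 0 with BSJ-04-0146, and 1 and 1 with VS-4718. One of the 3 higher with degrader 1 was *Acacb* (1.97 ± 0.13, edgeR adjusted p = 5.83e-17), an acetyl-CoA carboxylase, which uses acetyl-CoA and does not supply it. *Pgd*, of the pentose phosphate pathway, was lower with degrader 1 (-0.82 ± 0.035, edgeR adjusted p = 1.32e-22) and *Idh1* higher with BSJ-04-0146 (0.98 ± 0.046, adjusted p = 1.28e-20).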
